A study of Mus musculus with 16 samples.

Results

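The genes described here are the collagen, laminin and integrin chains that mouse embryonic stem cells expressed in a ribosome profiling study of Nat1. They were chosen by name: symbols of the form Col, number, a, number, or beginning with Lama, Lamb, Lamc, Itga or Itgb followed by a digit, with a mean of at least 10 normalised reads over the 8 total RNA libraries. Of 21977 gene names in the table, 76 had such a symbol and 57 reached the minimum: 32 collagen, 9 laminin and 16 integrin genes. Just inside the minimum stood Itgb8 at a mean of 10.2 and Col6a6 at 10.7, and just outside it Col11a2 at 8.95 and Lama2 at 8.77. In the footprint libraries 51 of the 57 also reached a mean of 10 and were tested there; Col20a1, Col23a1, Col25a1, Col6a6, Itga4 and Itgb8 did not.

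Collagens assemble from 3 chains into fibrils, networks or membrane-spanning proteins. Laminins combine an alpha, a beta and a gamma chain into a cross-shaped protein that, with type IV collagen, builds the basement membrane. Integrins are receptors of an alpha and a beta chain at the cell surface, and those with the beta1 chain, together with the alpha6 beta4 receptor, bind laminin, collagen or fibronectin. In the mouse embryo a laminin-rich basement membrane separates primitive endoderm from epiblast, and in embryonic stem cells integrin signals are among those that act on self-renewal and differentiation.

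Nat1, also named Eif4g2, encodes a relative of the initiation factor eIF4G without a site for the cap-binding protein. The samples were the RF8 embryonic stem cell line, wild type (WT), as 2 cultures named WTex1 and WTex2, the 3 heterozygous clones A7, B4 and C1 (Nat1+/-) and the 3 null clones B12, B2 and C3 (Nat1-/-), numbered 1 to 3 in that order within each genotype. All grew on gelatin-coated plates in medium with LIF, the cytokine that holds mouse stem cells undifferentiated. Each culture gave a library of ribosome-protected fragments (RPF, the pieces of mRNA inside translating ribosomes) and a library of total RNA, 16 in all. The labels name each mutant culture as a line of its own and both WT cultures as RF8, so the WT spread need not be that between separate lines. Part of it was shared by the 2 libraries of a culture: Col1a1 was higher in WTex2 than in WTex1 in both assays.

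Depth, as whole reads recovered from the deposited values, was 17.5 to 23.8 M reads in RPF and 13.2 to 42.6 M reads in total RNA. Eif4g2 itself checked the labels: its normalised RPF reads were 17666 and 13862 (WT), 10261, 7608 and 7275 (Nat1+/-) and 1089, 1114 and 922 (Nat1-/-). In total RNA it stood at 47932 and 26985 (WT), 15335, 12092 and 10674 (Nat1+/-) and 12249, 8795 and 5085 (Nat1-/-), where the null clone B12 lay above B4 and C1. The summed level of 7 stem cell markers (Pou5f1, Nanog, Sox2, Zfp42, Esrrb, Tdgf1 and Utf1) in RPF was 79286 to 95442 in WT, 91743 to 101344 in Nat1+/- and 141246 to 158476 in Nat1-/-. Values below are reads divided by a size factor for each library (normalised reads). They are not divided by gene length and are therefore compared between cultures, not between genes.

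Between Nat1-/- and Nat1+/- clones, the collagens that passed were lower except for Col20a1 in total RNA, laminins split by chain, and integrins went both ways. Of the 51 members tested in RPF, 7 were higher and 20 lower in Nat1-/- at an adjusted p under 0.05 (limma with Benjamini-Hochberg adjustment over all genes). Among all 13110 genes tested, 36.1% were called in this comparison, 17.6% higher and 18.6% lower. In total RNA, 9 of 57 members were higher and 21 lower, where 40.0% of 13813 genes were called, 19.8% higher and 20.2% lower. The median log2 fold change of the members was -1.10 in RPF and -0.91 in total RNA, against 0.02 and 0.01 for all genes tested; fold changes here use log2(value + 1), so the change of low genes is understated. With 2 members whose Nat1-/- group held no read set to the lower bound of their change, the total RNA median was -0.86, and without the 1 of them tested in RPF that median was -1.14. Every Nat1-/- value lay above every Nat1+/- value for 7 members in RPF and below it for 20, where 48.1% of all genes showed such a gap and 23.5% were on the low side. In total RNA the numbers were 10 and 25, where 50.2% of all genes showed a gap and 24.6% were on the low side.

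The split moved with single clones and with the scaling. Without the Nat1-/- clone B2, 16 members were called in RPF, 2 higher and 14 lower. The split was 3 higher and 18 lower without B4 and 4 and 19 without A7; with every library scaled to an equal sum, 4 were higher and 22 lower. Leaving out a WT culture does not change a fold between Nat1-/- and Nat1+/-. Calls listed below as lost that way reflect only the estimate of spread, which all genotypes share. In bulk cultures, fewer cells of a kind and less RNA per cell cannot be told apart. Among the 51 members tested in both assays, which came from the same cultures, 6 were called higher in both and 16 lower in both. Calls in opposite directions numbered 0. These counts were not made over all genes, so the agreement is not a result about the members. Col16a1, Col1a1, Col9a3, Itgb5 and Itgb7 passed in RPF alone and Col27a1, Col6a4, Itga10, Itga8 and Lama5 in total RNA alone; the difference between assays is tested below as translational efficiency.

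**Figure D1:**
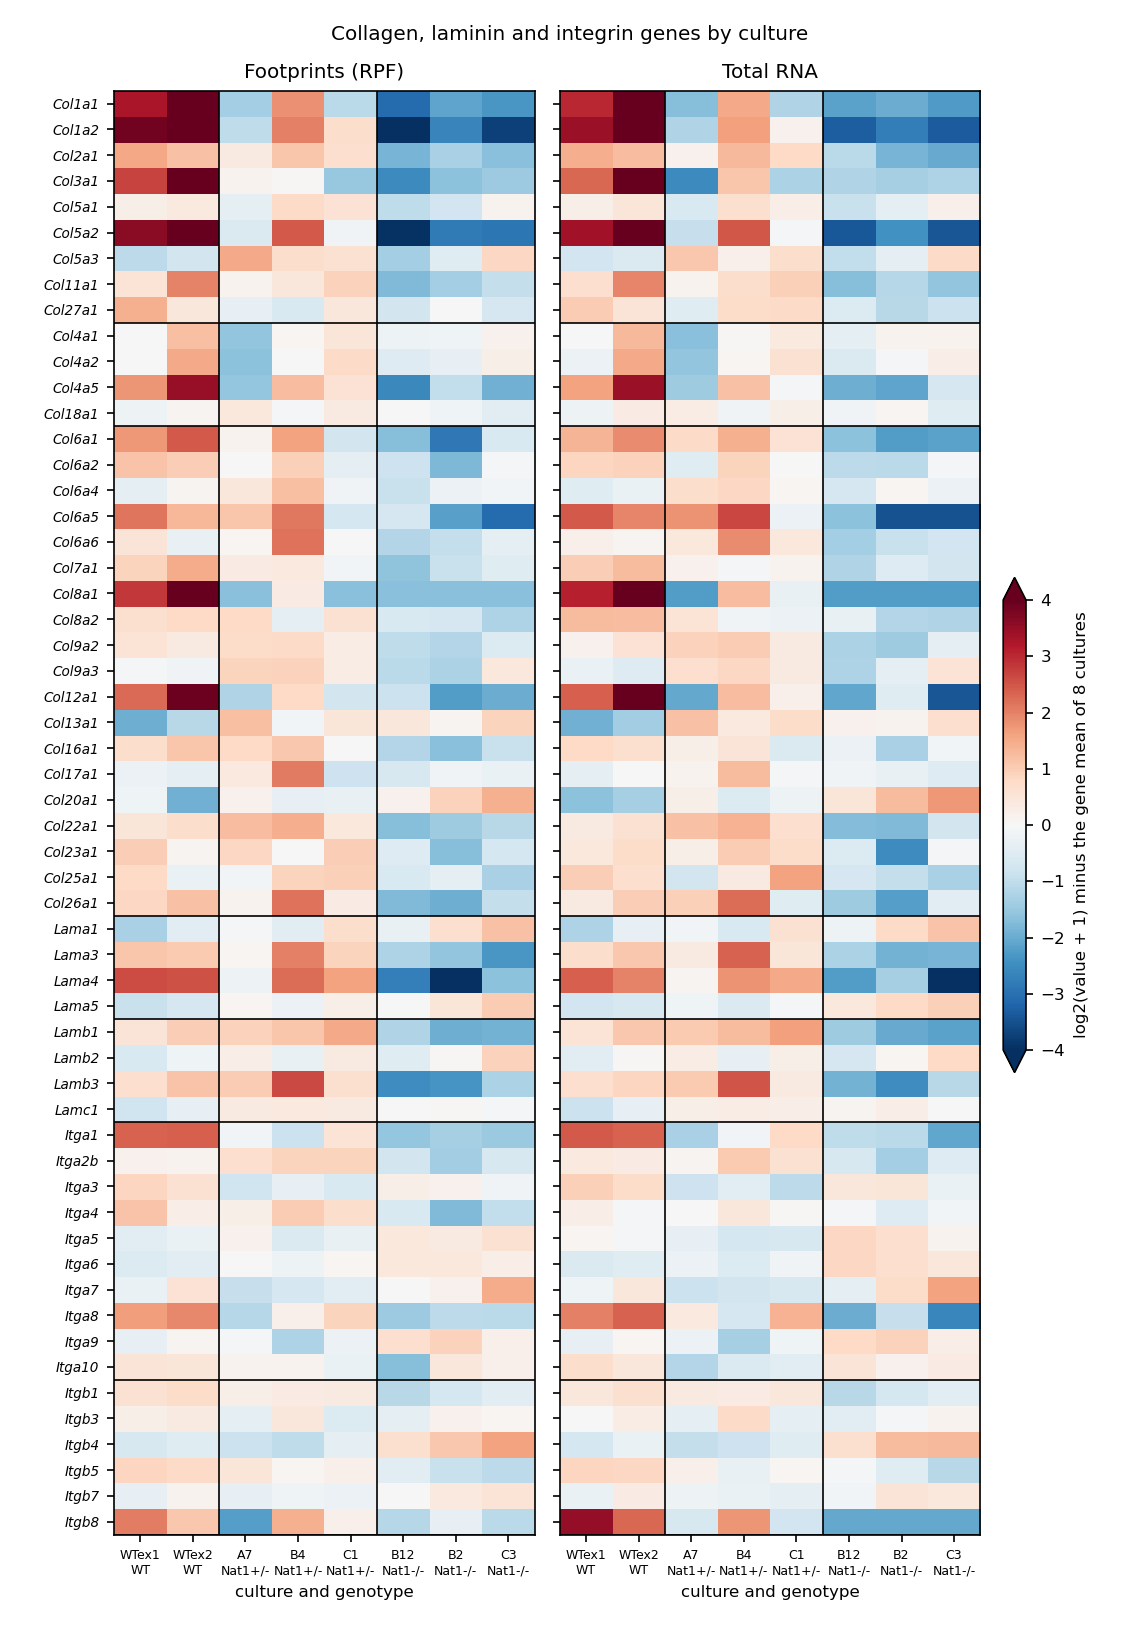
Each row is a gene and each column 1 culture, with RPF on the left and total RNA on the right; colour is log2(value + 1) minus the mean of the gene over the 8 cultures of that assay, cut at 4 in either direction. The fibrillar collagens Col1a1, Col1a2 and Col5a2 are dark red in both WT cultures and blue in the 3 Nat1-/- clones, and B4 is the reddest of the Nat1+/- clones for these genes; Lamb1 is blue in Nat1-/- only.

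**Figure D2:**
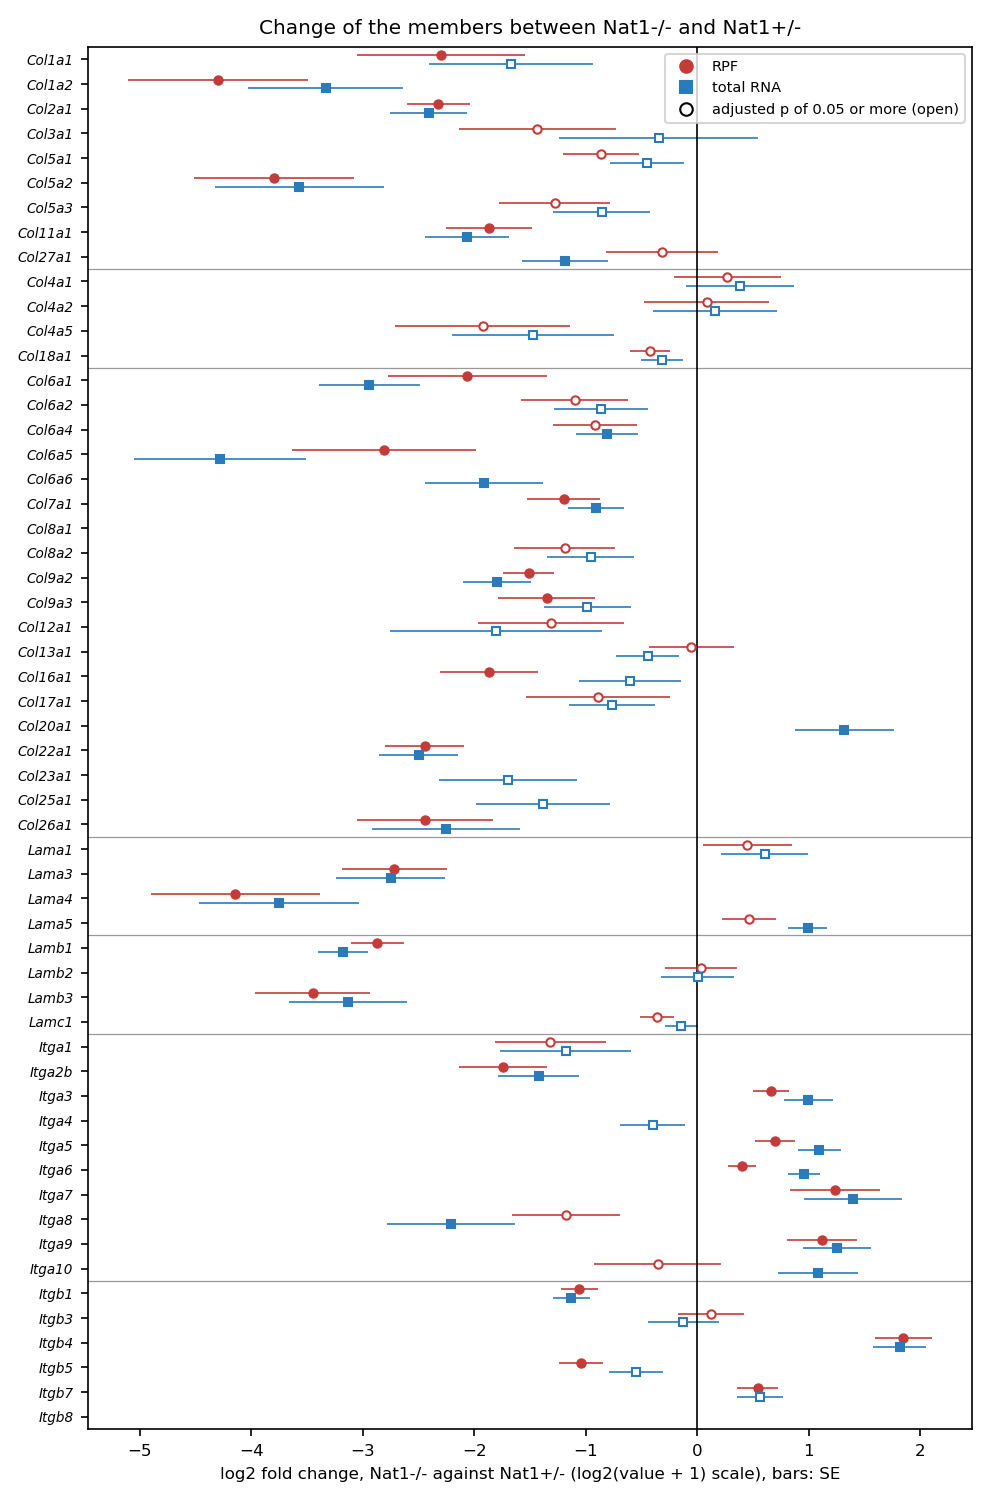
Log2 fold change of the members in Nat1-/- against Nat1+/- on the log2(value + 1) scale, with its standard error, in RPF (red circles) and total RNA (blue squares); filled symbols passed at an adjusted p under 0.05. Col8a1, and Itgb8 in total RNA, are not drawn because a compared group held no read. The 7 members called higher in RPF are all integrins, and no collagen or laminin called in RPF lies to the right of 0.

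Laminin chains that pair in a single protein differed in direction. Lamb1, the beta1 chain of the laminins made by early embryonic cells, was the member with the smallest adjusted p in both assays. RPF read values were 3852 and 5322 (WT), 5174, 5869 and 7842 (Nat1+/-) and 1181, 704 and 734 (Nat1-/-), so that every null clone was below every other culture. Total RNA read values were 2576 and 3723 (WT), 3648, 4288 and 5584 (Nat1+/-) and 655, 440 and 406 (Nat1-/-), again without overlap. The log2 fold change in Nat1-/- against Nat1+/- was -2.87 ± 0.23 in RPF (SE; adjusted p = 5.05e-05) and -3.18 ± 0.23 in total RNA (adjusted p = 1.90e-05), and the call stood with each culture left out in turn. Relative to the heterozygous clones, the null mean came to 13.9% in RPF and 11.1% in total RNA.

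Lama5, an alpha chain that joins beta1 and gamma1 in the laminin widely used to grow stem cells, went the other way in total RNA. Total RNA read values were 4337 and 4705 (WT), 6608, 4982 and 7221 (Nat1+/-) and 9985, 12971 and 14402 (Nat1-/-), the null clones above all others. The total RNA change was 0.99 ± 0.17 (adjusted p = 0.00192). In RPF the values were 2985 and 3478 (WT), 5860, 4713 and 6563 (Nat1+/-) and 5478, 7752 and 11203 (Nat1-/-); the Nat1+/- and Nat1-/- clones overlapped, and the change of 0.46 ± 0.24 did not pass (adjusted p = 0.156). Lamc1, the gamma1 chain of the same protein, stood at 19701, 20204 and 19901 in the RPF of Nat1+/- and at 15512, 15982 and 15095 in that of Nat1-/-. Its change of -0.36 ± 0.15 did not pass (adjusted p = 0.0867) although the groups did not overlap; it passed with equal library sums and in DESeq2.

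The stretches just before the annotated starts of Lamb1 and Lama5 are shown because the 2 chains share a protein and moved in opposite directions. They are RefSeq sequence of the build GRCm38.p6, 5′ to 3′ on the gene's strand, limited to bases outside every annotated start of the gene. Capitals mark matches, on either strand, to the GC box (GGGCGG), the TATA box (TATAAA) and the CCAAT box (CCAAT). The Lamb1 window is chr12:31265043-31265145 on the plus strand, 103 bases that also lie in the predicted gene Gm32899. The Lama5 window is chr2:180225905-180226109 on the minus strand, 205 bases that also lie in the predicted gene Gm52542.
Lamb1: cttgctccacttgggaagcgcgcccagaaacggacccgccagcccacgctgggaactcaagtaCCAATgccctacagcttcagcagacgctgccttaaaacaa
Lama5: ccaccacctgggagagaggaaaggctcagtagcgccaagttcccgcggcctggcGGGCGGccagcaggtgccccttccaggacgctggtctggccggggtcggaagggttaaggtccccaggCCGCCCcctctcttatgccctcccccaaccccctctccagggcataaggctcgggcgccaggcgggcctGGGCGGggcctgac
The Lamb1 window held 1 CCAAT match and the Lama5 window 3 GC box matches. Among 32851 RefSeq promoter windows cut to their first 103 bases at the upstream end, 13.9% held CCAAT, 10.8% a GC box and 5.38% TATAAA. Cut to their first 205 bases, the shares were 29.2%, 25.6% and 9.33%. These cuts need not reach the start of a gene, unlike the printed stretches, so the shares are a rough background. A match is a string of letters here and was not tested as a binding site.

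The alpha3 and beta3 chains, which take part in laminin that anchors epithelium, were both lower in Nat1-/-. Lama3 stood in RPF at 108 and 105 (WT), 53.1, 206 and 93.4 (Nat1+/-) and 20.5, 16 and 9.11 (Nat1-/-). All null clones were below all others, and the change against Nat1+/- was -2.72 ± 0.47 in RPF (adjusted p = 0.00240) and -2.75 ± 0.49 in total RNA (adjusted p = 0.00193). The total RNA change of Lama3 was -2.10 without the clone B4, which held the highest of the Nat1+/- values.

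Lamb3 stood in RPF at 94.8 and 129 (WT), 118, 367 and 91.3 (Nat1+/-) and 9.72, 10.7 and 23.9 (Nat1-/-). It was lower in every null clone than in any other culture, at -3.45 ± 0.52 in RPF (adjusted p = 0.00114) and -3.13 ± 0.53 in total RNA (adjusted p = 0.00158). Without B4 these were -2.84 and -2.53.

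Lama4, an alpha chain of vessel and muscle basement membranes, was close to 0 in the null clones. RPF read values were 127 and 121 (WT), 17.3, 98.2 and 63.0 (Nat1+/-) and 2.16, 0 and 5.70 (Nat1-/-), the last group resting on 7 reads. The change against Nat1+/- was -4.14 ± 0.75 in RPF (adjusted p = 0.00308) and -3.75 ± 0.72 in total RNA (adjusted p = 0.00295). Single clones moved its size: in RPF it was -4.85 without A7, -3.41 without B2 and -4.78 without C3, and in total RNA -4.39 without B2 and -2.92 without C3. Tek, the receptor that marks vessel lining among 5 endothelial markers, fell in the same comparison by 2.85 on the log2 scale in RPF. Of the 5, 2 were tested there, 1 called lower and 0 higher, where 18.6% of all genes were lower and 17.6% higher. The median change of the 2 was -1.60. The summed RPF level of the 5 was 391 to 424 in WT, 254 to 529 in Nat1+/- and 62.2 to 103 in Nat1-/-. Their part in the result was not tested.

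Lama1 and Lamb2 did not pass between Nat1-/- and Nat1+/-. Lama1, the alpha chain of the first embryonic laminin, ranged from 3450 to 7573 in the RPF of Nat1+/- and from 3755 to 10429 in that of Nat1-/-, a change of 0.45 ± 0.40 (adjusted p = 0.395). Lamb2, the alternative to beta1, changed by 0.04 ± 0.33 in RPF and 0.00 ± 0.33 in total RNA. In all, 4 of 9 laminins were lower and 0 higher in RPF, and 4 lower and 1 higher in total RNA. Of all genes, 18.6% were lower and 17.6% higher in RPF, and 20.2% lower and 19.8% higher in total RNA.

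**Figure D3:**
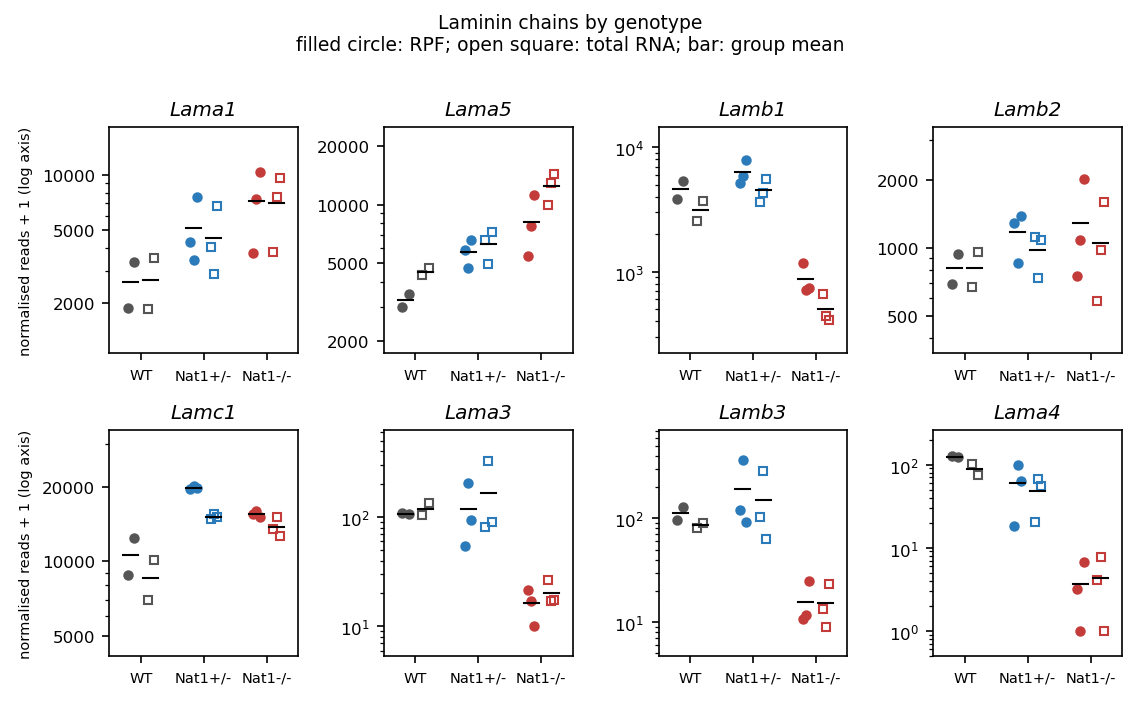
Normalised reads plus 1, on a log axis, of 8 laminin chains by genotype: filled circles are RPF, open squares total RNA, 1 point per culture, and bars are group means. Lamb1, Lama3, Lamb3 and Lama4 lie lower in the 3 Nat1-/- clones than in every other culture, Lama5 lies higher there in total RNA, and Lamb2 and Lama1 overlap between Nat1+/- and Nat1-/-.

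Collagen calls in RPF were all on the low side, as were those of laminins. Against Nat1+/-, 13 of 28 tested in RPF were lower in Nat1-/- and 0 higher, where 18.6% of all genes were lower and 17.6% higher. In total RNA, 13 of 32 were lower and 1, Col20a1, was higher, where 20.2% of all genes were lower and 19.8% higher. The median log2 fold change of the collagens was -1.33 in RPF, and -1.29 in total RNA or -1.09 with Col8a1 at its bound. Fibrillar collagens, the rope-forming chains of skin, tendon, bone and cartilage, supplied 5 of the 13 in RPF, and the collagens of other kinds supplied 8.

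Col1a2, a chain of type I collagen, stood in RPF at 412 and 1362 (WT), 13, 113 and 45.1 (Nat1+/-) and 0, 3.55 and 1.14 (Nat1-/-). The 3 genotypes did not overlap, although the null group held only 5 reads. The change in Nat1-/- against Nat1+/- was -4.30 ± 0.81 in RPF (adjusted p = 0.00356) and -3.33 ± 0.69 in total RNA (adjusted p = 0.00447). Without A7 these were -5.09 and -4.04, and without B4 -3.57 and -2.61.

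Col1a1, the partner chain, stood in RPF at 1911 and 5922 (WT), 77.0, 707 and 93.4 (Nat1+/-) and 22.7, 45.3 and 38.7 (Nat1-/-). The groups did not overlap, with B4 far above the other Nat1+/- clones. The RPF change against Nat1+/- of -2.30 ± 0.75 passed (adjusted p = 0.0377) but did not without B12, B2, C3 or B4, and was -1.29 without B4; the call also ended without the variance trend and in the 5 cultures with shallow total RNA libraries. The total RNA change of Col1a1, -1.67 ± 0.73, did not pass (adjusted p = 0.0942), and passed in edgeR and DESeq2.

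Col5a2, which helps start type I fibrils, stood in RPF at 392 and 681 (WT), 20.6, 176 and 28.3 (Nat1+/-) and 1.08, 3.55 and 3.42 (Nat1-/-). B4 was again the highest of its group, and the genotypes did not overlap. The change against Nat1+/- was -3.80 ± 0.71 in RPF (adjusted p = 0.00359) and -3.57 ± 0.76 in total RNA (adjusted p = 0.00486). Without B4 it was -2.86 and -2.57, and in total RNA -4.28 without A7. Col5a2 lies next to Col3a1, a fibril chain of vessels and skin, on chromosome 1. Col3a1 held 2 RPF reads in the whole Nat1-/- group, against 37.3 and 111 normalised reads in WT and 5.42, 5.06 and 1.05 in Nat1+/-, and its change there did not pass.

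Col2a1 and Col11a1 are fibril chains best known from cartilage. Col2a1 stood in RPF at 178 and 138 (WT), 78.1, 132 and 97.6 (Nat1+/-) and 16.2, 24.0 and 18.2 (Nat1-/-). Its null clones were below all others, at -2.32 ± 0.28 against Nat1+/- (adjusted p = 0.000408), and at -2.41 ± 0.35 in total RNA (adjusted p = 0.000675). Col11a1, which forms mixed fibrils with type II collagen, stood at 121 and 331 (WT), 92.2, 113 and 160 (Nat1+/-) and 23.8, 32.0 and 42.1 (Nat1-/-). It too was lowest in the 3 null clones, at -1.87 ± 0.39 (adjusted p = 0.00562). Both calls stood with each culture left out. Col27a1 passed in total RNA alone, at -1.19 ± 0.39, and lost the call without B2, C3, B4, C1 or either WT culture; Col5a1 and Col5a3 did not pass in either assay, Col5a1 passing in RPF with DESeq2.

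Basement membrane collagens did not follow. Col18a1, which carries the endostatin fragment, stood in RPF at 6519 and 8163 (WT), 10080, 7168 and 9588 (Nat1+/-) and 7588, 6652 and 5698 (Nat1-/-). The groups overlapped, and the change of -0.42 ± 0.18 did not pass (adjusted p = 0.0873); it passed with equal library sums. Col4a1, a chain of the type IV network, stood at 1021 and 2305 in WT, ranged from 333 (A7) to 1415 (C1) in Nat1+/- and from 867 to 1128 in Nat1-/-, with a change of 0.27 ± 0.48 (adjusted p = 0.682). Col4a2, its partner, changed by 0.09 ± 0.56 in RPF. Col4a1 and Col4a2 overlap by 85 bases at their annotated ends, and the strand setting of the counting is not given in the sources used. Col4a5, on the X chromosome, stood at 3.25, 28.4 and 17.8 in Nat1+/- and 1.08, 5.33 and 2.28 in Nat1-/-; its change of -1.92 ± 0.78 did not pass (adjusted p = 0.0812), and passed in DESeq2.

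Of the collagens of other kinds, Col22a1 and Col9a2 were lower in both assays. Col22a1, a collagen of muscle and tendon junctions, stood in RPF at 42.7 and 50.3 (WT), 72.6, 85.1 and 40.9 (Nat1+/-) and 8.64, 10.7 and 13.7 (Nat1-/-). The null clones lay below all others, at -2.44 ± 0.36 against Nat1+/- (adjusted p = 0.000991) and -2.50 ± 0.36 in total RNA. Col9a2, which decorates cartilage fibrils, stood at 221 and 196 (WT), 253, 257 and 186 (Nat1+/-) and 74.5, 65.7 and 104 (Nat1-/-). These did not overlap either, at -1.51 ± 0.23 in RPF (adjusted p = 0.00123) and -1.79 ± 0.31 in total RNA. Both calls stood with each culture left out.

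Type VI collagen forms beaded filaments around cells. Col6a1 stood in total RNA at 27.2 and 39.9 (WT), 18.0, 28.8 and 15.7 (Nat1+/-) and 2.59, 1.33 and 1.49 (Nat1-/-), the last group from 7 reads. The groups did not overlap, at -2.94 ± 0.45 (adjusted p = 0.000959). In RPF the change was -2.06 ± 0.71 (adjusted p = 0.0456), with overlapping values, and the call ended without B12, B2, A7, B4 or either WT culture, at -1.43 without B4, and under 6 of the other settings tried. Its neighbour on chromosome 10, Col6a2, did not pass. The adjacent genes Col6a4, Col6a5 and Col6a6 on chromosome 9 were each lower in total RNA, at -0.81 ± 0.28, -4.28 ± 0.77 and -1.92 ± 0.53. Col6a6 became a member only through its Nat1+/- values, which in part set its direction here. Of these, Col6a4 lost the call without B12, C3, A7, B4 or either WT culture, and Col6a6 without B4, while Col6a5 was -3.65 without B4, -5.10 without C1 and -4.90 without B12.

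The other called collagens ranged from -1.20 (Col7a1, the anchoring fibril of skin) to -2.44 (Col26a1) in RPF, with Col16a1 at -1.87 and Col9a3 at -1.35. Of these, Col16a1 kept the call with each culture left out. Col7a1 lost it without B2, A7 or B4, Col26a1 without B2 (and was -1.80 without B4), and Col9a3 without B12, B2, A7, B4 or either WT culture. Col6a5 in RPF, at -2.81, lost it without B2, C3, A7 or B4, and ranged to -2.18 without B4 and -3.58 without C1. Col20a1, a little-studied fibril-associated chain and the collagen higher in Nat1-/-, stood in total RNA at 18.0, 10.1 and 12.8 in Nat1+/- and 21.2, 37.3 and 52.2 in Nat1-/-. Its groups did not overlap, at 1.32 ± 0.44 (adjusted p = 0.0383), but the call ended without B2, C3, B4, C1 or either WT culture. Col12a1, Col13a1, Col17a1 and Col8a2 did not pass between Nat1-/- and Nat1+/- in either assay, and neither did Col23a1 and Col25a1 in total RNA.

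**Figure D4:**
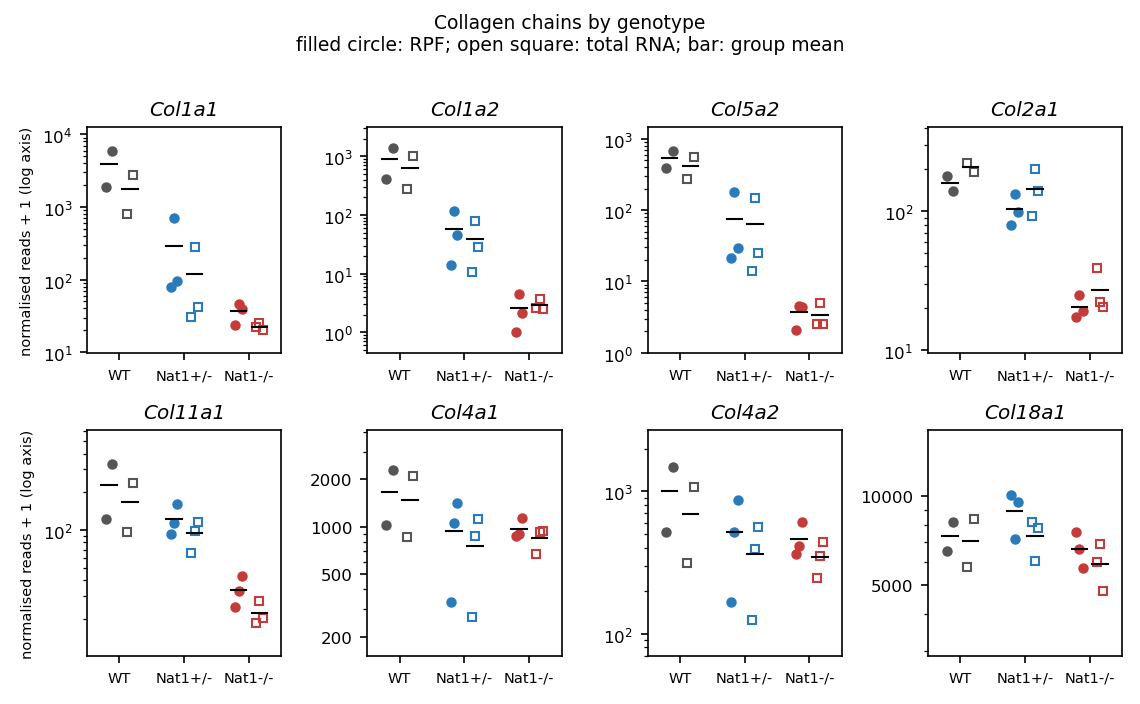
Normalised reads plus 1, on a log axis, of 8 collagen chains by genotype: filled circles are RPF, open squares total RNA, 1 point per culture, and bars are group means. Col1a1, Col1a2 and Col5a2 step down from WT through Nat1+/- to Nat1-/- without overlap in RPF, Col2a1 and Col11a1 are low in Nat1-/-, and Col4a1, Col4a2 and Col18a1 overlap between Nat1+/- and Nat1-/-.

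Markers of fibroblasts, a cell type rich in fibrillar collagen, moved in part with Col1a1, Col1a2 and Col5a2. The summed RPF level of 13 markers (Acta2, Tagln, Thy1, Pdgfrb, Postn, Dcn, Lum, Fap, Twist2, Prrx1, S100a4, Fbln2 and Vim) was 12934 to 14890 in WT, 2838 to 4087 in Nat1+/- and 3235 to 3893 in Nat1-/-. Vim, which stem cells also express, made up most of the sum in the mutant clones. Without Vim, a choice made after seeing the values, the sum of 12 was 7284 and 9112 (WT), 740, 1847 and 783 (Nat1+/-) and 222, 175 and 265 (Nat1-/-). B4 was thus the highest of the Nat1+/- clones in this sum as in the 3 collagens. Tagln and Acta2, genes of contractile cells, carried the WT sum: Tagln stood in RPF at 5906 and 5593 (WT), 121, 763 and 168 (Nat1+/-) and 35.6, 49.7 and 19.4 (Nat1-/-). Thy1 and Pdgfrb of the same list did not share the drop from WT to Nat1+/-. Thy1 stood at 162 and 121 (WT), 259, 328 and 219 (Nat1+/-) and 125, 46.2 and 96.8 (Nat1-/-), and Pdgfrb at 113 and 165 (WT), 228, 219 and 188 (Nat1+/-) and 37.8, 47.1 and 108 (Nat1-/-), both highest in the heterozygous clones. Dcn, Lum and S100a4 were at 0 in the RPF of all Nat1-/- clones, and also in that of A7 and in the total RNA of all Nat1+/- clones; S100a4 was at 0 in the RPF of WTex1 and Lum in that of WTex2. Of 7 fibroblast markers tested in RPF, 5 were lower and 1 higher in Nat1-/- against Nat1+/-, where 18.6% of all genes were lower and 17.6% higher. Their part in the collagen values was not tested. Without B4, 21 members were called in RPF and 24 in total RNA between Nat1-/- and Nat1+/-. These counts were 16 and 23 without B2, and 23 and 32 without A7. The shares of all genes called in these fits were not counted.

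Among integrins, the beta1 chain was lower in Nat1-/- than in Nat1+/- while several of its alpha partners were higher. Of 14 tested in RPF, 7 were higher and 3 lower than in Nat1+/-, where 17.6% of all genes were higher and 18.6% lower. Of 16 in total RNA, 7 were higher and 4 lower, where 19.8% of all genes were higher and 20.2% lower. The low side of the integrins, 21.4% in RPF and 25% in total RNA, was near the share of all genes. Itgb1, the beta chain of most matrix-binding integrins, stood in RPF at 12256 and 13303 (WT), 9270, 9995 and 10163 (Nat1+/-) and 3686, 4886 and 5789 (Nat1-/-). Total RNA read values were 9140 and 10498 (WT), 8587, 8413 and 9082 (Nat1+/-) and 3084, 4086 and 4990 (Nat1-/-). The null clones were the lowest in both assays, at -1.06 ± 0.17 in RPF (adjusted p = 0.00151) and -1.13 ± 0.17 in total RNA (adjusted p = 0.000790). The mean of the null clones was 48.8% of the Nat1+/- mean in RPF and 46.6% in total RNA, and the call stood with each culture left out.

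Itga5, the alpha chain that joins beta1 in the fibronectin receptor, stood in RPF at 994 and 1127 (WT), 1510, 914 and 1110 (Nat1+/-) and 1829, 1744 and 2055 (Nat1-/-). In total RNA it stood at 848 and 783 (WT), 640, 497 and 518 (Nat1+/-) and 1421, 1292 and 881 (Nat1-/-). All null clones were above all other cultures in both assays. The change against Nat1+/- was 0.70 ± 0.18 in RPF (adjusted p = 0.0153) and 1.10 ± 0.19 in total RNA (adjusted p = 0.00184), and both calls stood with each culture left out.

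The stretches before the starts of Itgb1 and Itga5 are given for the same reason, a receptor pair whose chains moved apart, and with the same marks. The Itgb1 window is chr8:128685404-128685653 on the plus strand and the Itga5 window chr15:103366792-103367041 on the minus strand (GRCm38.p6), 250 bases each, with no annotated gene inside.
Itgb1: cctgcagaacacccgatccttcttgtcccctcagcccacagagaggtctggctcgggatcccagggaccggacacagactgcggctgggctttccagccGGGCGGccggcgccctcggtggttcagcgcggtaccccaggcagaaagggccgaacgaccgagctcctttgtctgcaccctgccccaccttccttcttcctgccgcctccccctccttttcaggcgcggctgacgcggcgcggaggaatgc
Itga5: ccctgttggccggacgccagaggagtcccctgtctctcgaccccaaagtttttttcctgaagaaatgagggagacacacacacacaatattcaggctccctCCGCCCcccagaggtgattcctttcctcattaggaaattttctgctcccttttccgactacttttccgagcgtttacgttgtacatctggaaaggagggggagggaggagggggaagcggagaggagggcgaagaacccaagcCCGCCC
Itgb1 held 1 GC box match and Itga5 held 2, and neither window held TATAAA or CCAAT. Over their first 250 bases from the upstream end, 32.7% of the 32851 windows held a GC box, 12.4% TATAAA and 33.8% CCAAT. Of the 57 members, 41 had a promoter entry.

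Both chains of the alpha6 beta4 receptor, which binds laminin in hemidesmosomes, were higher in Nat1-/-. Itgb4 stood in RPF at 208 and 234 (WT), 182, 163 and 256 (Nat1+/-) and 517, 696 and 1000 (Nat1-/-). Every null clone was above every other culture, at 1.85 ± 0.26 against Nat1+/- in RPF (adjusted p = 0.000754) and 1.82 ± 0.24 in total RNA (adjusted p = 0.000418), and both calls stood with each culture left out. Itga6, which also pairs with beta1 as the main laminin receptor of stem cells, stood in RPF at 2794 and 3028 (WT), 4140, 3544 and 4357 (Nat1+/-) and 5495, 5434 and 4938 (Nat1-/-). In total RNA it stood at 3926 and 4178, at 5011, 4048 and 5308, and at 10426, 9400 and 8036. The genotypes did not overlap between Nat1+/- and Nat1-/- in either assay, and the difference was wider in total RNA: 0.40 ± 0.13 in RPF (adjusted p = 0.0332) and 0.96 ± 0.14 in total RNA (adjusted p = 0.000863). The RPF call of Itga6 ended without B12, B2, A7, B4 or either WT culture, and with equal library sums; the total RNA call stood with each culture left out.

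Itga3, another laminin-binding partner of beta1, was lowest in the heterozygous clones. RPF read values were 3561 and 3000 (WT), 1133, 1548 and 1277 (Nat1+/-) and 2279, 2189 and 1773 (Nat1-/-), 3 ranges that did not overlap. The change in Nat1-/- against Nat1+/- was 0.66 ± 0.16 in RPF (adjusted p = 0.0112), which ended without B2, and 1.00 ± 0.22 in total RNA (adjusted p = 0.00592), which stood. Itga7 and Itga9, alpha partners of beta1 known from muscle and lymphatic vessels, were higher than in Nat1+/- by 1.24 ± 0.40 and 1.12 ± 0.32 in RPF. Neither passed against WT in RPF. Itga7 overlapped there, at 53.6 and 95.9 in WT and 64.8, 72.8 and 181 in Nat1-/-. For Itga9, at 193 and 259 in WT and 382, 463 and 278 in Nat1-/-, the null clones lay above WT. The call of Itga7 ended without B2, C3 or any Nat1+/- clone, and that of Itga9 in RPF without B2 or B4. Itgb7, the lymphocyte homing chain, was higher by 0.54 ± 0.18 in RPF and lost the call without B2, C3 or any Nat1+/- clone. Leaving out B2, B4, A7 or C1 left 2, 3, 4 or 5 members called higher in RPF.

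The other integrins lower in Nat1-/- were fewer. Itgb5, a vitronectin-binding chain, stood in RPF at 663 and 628 (WT), 519, 386 and 423 (Nat1+/-) and 272, 199 and 178 (Nat1-/-). The null clones were the lowest, at -1.04 ± 0.19 (adjusted p = 0.00346), with each culture left out as well. In total RNA the Nat1+/- and Nat1-/- values of Itgb5 overlapped, and the change of -0.55 ± 0.24 did not pass (adjusted p = 0.0941). Itga2b, the platelet chain, was lower, at -1.74 ± 0.39 in RPF and -1.42 ± 0.37 in total RNA, the latter lost without B2. Itga8 was lower in total RNA, at -2.21 ± 0.57, and did not pass in RPF, where edgeR and DESeq2 called it. Itgb8 held 0 total RNA reads in all Nat1-/- clones against 1.63, 13 and 1.43 in Nat1+/-. Counting 3 reads in each null library as the floor, it was at least 1.6-fold lower, a bound that rests on B4, without which the Nat1+/- mean lay under the floor, and its call ended without B12, B2, C3, B4 or either WT culture. Itga10 rose in total RNA by 1.09 ± 0.36, and the call ended without any 1 of B12, B2, C3, A7 or the WT cultures. Itga1 and Itgb3 did not pass against Nat1+/- in either assay and Itga4 did not pass in total RNA. Itga1 passed there in RPF with edgeR and without the variance trend. Against WT it was lower in Nat1-/-, at -3.84 ± 0.56 in RPF, with 7 reads in the null group, and -3.80 ± 0.66 in total RNA.

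**Figure D5:**
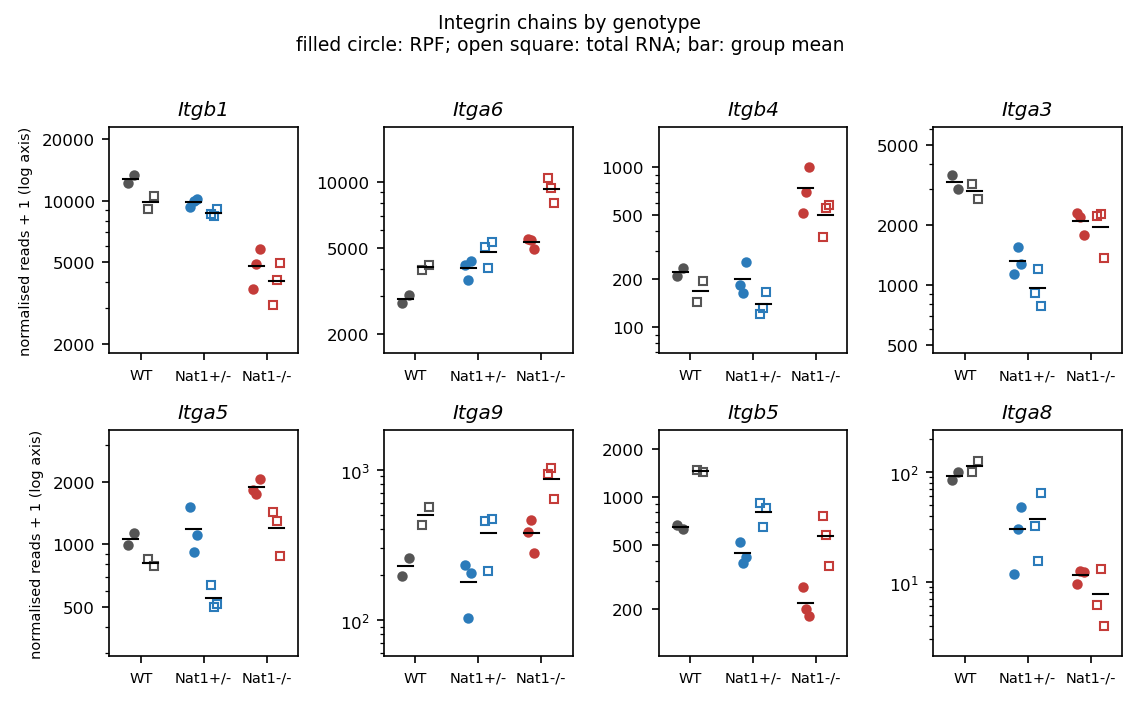
Normalised reads plus 1, on a log axis, of 8 integrin chains by genotype: filled circles are RPF, open squares total RNA, 1 point per culture, and bars are group means. Itgb1 drops in the 3 Nat1-/- clones while Itga5, Itga6 and Itgb4 lie above all other cultures there, and Itga3 is lowest in Nat1+/-.

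Against WT, which shares the Nat1-/- libraries with the comparison above, the low side was longer. In RPF, 7 of 51 members were higher and 27 lower in Nat1-/- than in WT, where 34.8% of all genes were called, 16.5% higher and 18.3% lower. In total RNA 7 of 57 were higher and 27 lower, where 35.0% of all genes were called, 16.2% higher and 18.9% lower. Col8a1, Col3a1, Itgb8, Itga1 and Col12a1, all among these 27, reached the minimum mean in total RNA only through their WT values. Those tested in RPF were called lower there too. The choice of members thus in part set their place on the low side against WT. The members' median was -1.41 in RPF and -1.30 in total RNA, against 0.03 and 0.02 for all genes. With equal library sums, the median of all genes moved by -0.11 in RPF and -0.12 in total RNA in this comparison. By family in RPF, 18 of 28 collagens were lower and 1 higher, 4 of 9 laminins lower and 3 higher, and 5 of 14 integrins lower and 3 higher.

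The steepest of these were fibrillar collagens. Relative to WT, the null mean in RPF came to 0.908% for Col1a1, 0.176% for Col1a2 and 0.5% for Col5a2. Their log2 changes were -6.58 ± 0.84, -8.46 ± 0.90 and -7.22 ± 0.80. WTex2 was the higher of the WT cultures in all 3. Without WTex1 and without WTex2, the change of Col1a1 was -7.40 and -5.76 and that of Col1a2 -9.32 and -7.59; that of Col5a2 moved by less than 1.5-fold. Col8a1, a network-forming collagen of vessels and cornea, held 0 reads in the 3 Nat1-/- clones in both assays, against 21.8 and 122 normalised reads in the RPF of WT. With 3 reads in each null library as the floor, it was at least 23.1-fold lower in RPF and 26.8-fold in total RNA. Without WTex2 these bounds for Col8a1 were 7.0 and 11.8, and without WTex1 39.3 and 41.8. Col4a5, at 41.9 and 139 in the RPF of WT, was lower, at -4.47 ± 0.88 in RPF and -4.12 ± 0.81 in total RNA; both calls ended without WTex2, at -3.61 and -3.20, and were -5.32 and -5.03 without WTex1.

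The largest called rises in RPF against WT were those of Col13a1, Itgb4, Lama1 and Lama5. Itga6, Itga5 and Lamc1 were the other members called higher, at 0.86 ± 0.14, 0.82 ± 0.20 and 0.57 ± 0.17. Of these, Itga5 lost the call without WTex1 and Lamc1 without B2 or WTex1. Col13a1, a membrane-spanning collagen of cell contacts, stood in RPF at 19.4 and 35.8 (WT), 183, 72.9 and 110 (Nat1+/-) and 107, 84.4 and 147 (Nat1-/-). All mutant clones were above both WT cultures, at 2.02 ± 0.43 for Nat1-/- (adjusted p = 0.00556), a call that ended without WTex1. Itgb4 was higher by 1.68 ± 0.29 and Lama5 by 1.28 ± 0.27 in RPF, the latter not without WTex1. Lama1 stood at 1880 and 3354 (WT), 4332, 3450 and 7573 (Nat1+/-) and 3755, 7396 and 10429 (Nat1-/-). It was above WT in all null clones, at 1.40 ± 0.44 (adjusted p = 0.0343), but the call ended without B2, C3, A7 or WTex1, and without the variance trend.

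Nat1+/- against WT gave fewer calls than the comparisons above. In RPF 2 members were higher and 8 lower, where 10.5% of all genes were called, 5.35% higher and 5.13% lower. In total RNA 2 were higher and 8 lower, where 10% were called, 4.60% higher and 5.41% lower. Col8a1, Col3a1 and Itga1, lower in both assays, and Col12a1, lower in RPF, became members only through their WT values, which in part set this direction. The medians were -0.41 and -0.43, against -0.01 and -0.02 for all genes. Without WTex1 or without WTex2 the members lost their calls in both assays. The lone WT library is then assumed to vary like the other groups, and the share of all genes called was not counted. These losses therefore cannot show that a call rests on 1 WT culture. With both WT cultures kept, the number of members called in RPF was 1 without A7 and 3 without C1. In total RNA it was 3 without A7, 6 without C1 or B2, and 16 without C3.

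The higher members were Col13a1, at 2.07 ± 0.43 in RPF and 2.42 ± 0.32 in total RNA, and Lamc1. Lamc1 stood in RPF at 8818 and 12415 in WT and at 19701, 20204 and 19901 in Nat1+/-, the heterozygous clones close together and above WT. Its change was 0.93 ± 0.17 in RPF (adjusted p = 0.0181) and 0.86 ± 0.17 in total RNA, and ended without A7 as well as without either WT culture. Col1a1, Col1a2, Col3a1 and Col8a1 were the lowest in RPF. The RPF mean of Nat1+/- was 7.47% of the WT mean for Col1a1, 6.45% for Col1a2 and 5.17% for Col3a1. Their changes were -4.28 ± 0.84, -4.16 ± 0.90 and -3.93 ± 0.79, and the calls ended without A7 or C1 as well as without either WT culture. Without WTex1 and without WTex2 the change was -5.09 and -3.46 for Col1a1, -5.02 and -3.30 for Col1a2, and -4.71 and -3.15 for Col3a1; without B4 it was -5.29 for Col1a1 and -4.88 for Col1a2, and without A7 -3.37 for Col1a2. Col8a1 held 3 RPF reads in the 3 Nat1+/- clones, all in B4. Itga3, at 3561 and 3000 in WT and 1133 to 1548 in Nat1+/-, was lower, at -1.32 ± 0.18 in RPF (adjusted p = 0.00820) and -1.62 ± 0.25 in total RNA. Col12a1, Col5a2 and Itga1 completed the 8 in RPF. The fibroblast marker sums given above were also lower in Nat1+/- than in WT. Of 7 tested markers, 4 were lower and 0 higher in RPF, where 5.13% of all genes were lower and 5.35% higher. Thy1 and Pdgfrb, however, lay above WT in all 3 heterozygous clones. The part of the fibroblast markers in the collagen and integrin values was not tested.

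Translational efficiency, the RPF value of a gene relative to its total RNA value, was fitted over the 16 libraries as a term for genotype by assay. For Nat1-/- against Nat1+/-, limma called 0 of 51 members, where 0.580% of all genes were called, 0.0309% higher and 0.549% lower; 2 members had an unadjusted p under 0.05, and edgeR and DESeq2 also called 0. For Nat1-/- against WT, 0 of 51 were called, where 0.00773% of all genes were called, and 0 had an unadjusted p under 0.05. For Nat1+/- against WT, 0 were called, where 0.00% of all genes were called, and 1 had an unadjusted p under 0.05; edgeR and DESeq2 called 0 in both. The members' median difference was -0.15, -0.10 and 0.05 in the order given, against 0.01, 0.03 and 0.02 for all genes.

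Because the RPF and total RNA libraries of a culture share that culture, the same test with the culture as a block is a paired one. It called 6 of 51 members between Nat1-/- and Nat1+/-, where 15.8% of all genes were called, 6.49% higher and 9.26% lower, so that the members' share was below that of all genes. Itga6 had the smallest adjusted p. Its RPF value over its total RNA value was 0.711 and 0.725 (WT), 0.826, 0.875 and 0.821 (Nat1+/-) and 0.527, 0.578 and 0.615 (Nat1-/-). The 3 genotypes did not overlap, with the null clones lowest, at -0.55 ± 0.09 on the log2 scale (adjusted p = 0.00310 with the block), and -0.50 to -0.61 with each culture left out, called each time.

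Lamb1 was the only member of the 6 with a higher ratio in Nat1-/-. The ratio was 1.5 and 1.43 (WT), 1.42, 1.37 and 1.40 (Nat1+/-) and 1.80, 1.6 and 1.81 (Nat1-/-), without overlap, at 0.31 ± 0.09 (adjusted p = 0.0338). For Lama5 it was 0.688 and 0.739 (WT), 0.887, 0.946 and 0.909 (Nat1+/-) and 0.549, 0.598 and 0.778 (Nat1-/-), at -0.53 ± 0.12 (adjusted p = 0.0160). WT lay inside the range of Nat1-/- and below Nat1+/-. Against WT, Lama5 changed by -0.17 ± 0.14 in Nat1-/- and 0.36 ± 0.14 in Nat1+/-, neither called. Itgb5, Col5a1 and Col16a1 were lower, at -0.49 ± 0.14, -0.42 ± 0.12 and -1.27 ± 0.37. Against WT they changed by -0.18, -0.16 and -0.88 in Nat1-/- and by 0.31, 0.26 and 0.38 in Nat1+/-, none called. Leaving out cultures one at a time, a step added after seeing the data, ended the calls of Lamb1, Lama5, Itgb5, Col5a1 and Col16a1 for at least 1 culture each. Lamb1 was lost without B12, C3 or any Nat1+/- clone, and Lama5 without B2 or any Nat1+/- clone. Itgb5 was lost without B12, B2 or any Nat1+/- clone, Col5a1 without B2, any Nat1+/- clone or either WT culture, and Col16a1 without any 1 of the 8 cultures. In the comparisons with WT the block called 0 members, where 1.22% of all genes were called for Nat1-/- and 1.13% for Nat1+/-.

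The genes around these chains, from lists of the wider matrix and adhesion pathway, were read in RPF for Nat1-/- against Nat1+/-, where 17.6% of all genes were higher and 18.6% lower, with a median of 0.02. Of 13 other basement membrane components, 6 were lower and 0 higher, with a median of -1.05. The most changed were Fras1 and Frem2, which tie epithelium to dermis in the embryo, at -4.47 ± 0.51 and -3.99 ± 0.41, and Npnt, a ligand of the alpha8 integrin, at -2.40 ± 0.36. Npnt stood at 57.5 and 87.1 (WT), 36.9, 72.9 and 64.0 (Nat1+/-) and 7.56, 10.7 and 11.4 (Nat1-/-); its receptor chain Itga8 stood at 83.1 and 98.8, at 10.8, 29.4 and 47.2, and at 8.64, 11.5 and 11.4. Npnt was lowest in the 3 null clones without overlap, whereas for Itga8 the clones B2 and C3 lay above A7.

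Of 20 other matrix glycoproteins, 3 were higher and 11 lower, with Matn2, Fbn2 and Fbln1, components of filaments and elastic fibres, at -3.25 ± 0.32, -3.43 ± 0.35 and -2.72 ± 0.29. Of 24 matrix proteases and inhibitors, 2 were higher and 12 lower, with the gelatin-cutting protease Mmp2 at -3.81 ± 0.36, the plasminogen activator Plat at -2.92 ± 0.30 and its inhibitor Serpine2 at -3.55 ± 0.30. Of 28 enzymes that modify collagen, 8 were higher and 4 lower. Against WT, with the same null libraries, 5 were higher and 11 lower, where 16.5% of all genes were higher and 18.3% lower. Among the 28, in Nat1-/- against Nat1+/-, P4ha2, a prolyl hydroxylase subunit, fell by 1.74 on the log2 scale. Pxdn, the peroxidase that links type IV collagen, fell by 1.35, and P3h1, another prolyl hydroxylase, rose by 1.00. Of 36 genes of the integrin adhesion machinery inside the cell, 5 were higher and 7 lower, with a median of -0.15, shares close to those of all genes. Fermt1, a kindlin that activates integrins, changed by -3.66 ± 0.56, Zyx by -1.13 ± 0.19 and Itgb1bp1 by 0.77 ± 0.16.

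Of 12 markers of extraembryonic endoderm, the tissue that lays down the first basement membranes, the summed RPF level was 329 to 390 in WT, 232 to 676 in Nat1+/- and 114 to 181 in Nat1-/-. Of 8 tested in RPF between Nat1-/- and Nat1+/-, Sox7 was higher and Dab2, Amn and Cubn were lower. Of all genes, 17.6% were higher and 18.6% lower in this comparison. Dab2 stood at 157 and 167 (WT), 48.8, 156 and 127 (Nat1+/-) and 15.1, 7.10 and 3.42 (Nat1-/-). Its null clones were the lowest, as for Lamb1, whereas Gata4 stood at 4.66 and 13.6 (WT), 46.6, 27.3 and 44.1 (Nat1+/-) and 23.8, 24.0 and 22.8 (Nat1-/-). The part of these markers in the laminin values was not tested. The summed RPF level of 4 blood cell markers was 200 to 213 in WT, 335 to 476 in Nat1+/- and 706 to 994 in Nat1-/-. Tyrobp was at 0 in the RPF of all WT and Nat1-/- cultures, and Ptprc in that of C1, B12 and B2. Of the 4, 2 were tested in RPF between Nat1-/- and Nat1+/-, and 2 were higher, where 17.6% of all genes were higher. In total RNA 1 was tested there and did not pass.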

How the data were processed

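Ribosome-protected fragments and total RNA of 8 cultures (16 libraries) were prepared with the TruSeq Ribo Profile kit, as the labels' protocols state. Each deposited value is a normalised signal: a read count that the authors divided by a size factor of its library. Per the submitters' processing notes, the tools were HTSeq 0.6.1, TopHat2 2.1.0, bcl2fastq 2.17, DESeq2, Bowtie2 2.2.8 and cutadapt 1.9.1, and the builds mm10 and GRCm38.p4. Strand setting, multi-mapping reads and footprint lengths are not given in the sources used here. Whole reads were recovered for 100% of values (tolerance 0.01). Size factors set within an assay hide a change shared by most genes.

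In limma 3.58.1 (R 4.3.3, with a variance trend), the assays were fitted separately on log2(value + 1), for genes with a mean of at least 10 over the 8 libraries, with 3 genotype means. Translational efficiency was the assay by genotype interaction over genes passing in both assays. Tests were two-sided, with Benjamini-Hochberg adjustment over all genes and a threshold of 0.05. Recovered reads were also tested with edgeR 4.0.16 and DESeq2 1.42.0. The fits were tested on simulated data with 200 changed genes.

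The 2 libraries of a culture paired it: deviations from genotype means correlated at 0.384 to 0.821 between its RPF and total RNA, the best match for 8 of 8 cultures. These matches are not independent. Deviations of the 2 WT cultures mirror each other, and centring also lowers the correlation with other clones of a genotype. The members and gene lists were chosen with earlier results of these data known. Values per culture were given for the 3 members of each group (fibrillar, basement membrane and other collagens, laminin alpha, laminin beta and gamma, integrin alpha, integrin beta) with the smallest adjusted p for Nat1-/- against Nat1+/-, the member with the highest mean RPF value, and up to 4 in each direction with the largest called RPF change against WT. The values of 1 member, counted in all totals, are not reported here. From each pathway list, 3 genes with the smallest adjusted p were named. The values given for Itga8, Itgb8, Col20a1, Npnt, Dab2 and Gata4, and the marker genes given singly, were chosen after they were seen. RefSeq tables of GRCm38.p6 gave promoter sequence and the order of neighbouring genes only. A count of 0 allows up to 3 reads, counting error only.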

Additional observations from a re-analysis of the deposited data

How the results depend on the processing

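No called change in RPF or total RNA reversed its sign under the settings tried; among changes that were not called, 94 of 3384 values did, such as Lamb2 in RPF with equal library sums (-0.05). Of the calls between Nat1-/- and Nat1+/-, 16 of 27 in RPF and 20 of 30 in total RNA stood with each culture left out; against WT 21 of 34 and 24 of 34 did for Nat1-/-, and 0 of 10 and 0 of 10 for Nat1+/-. With a culture left out, members called ranged from 16 to 27 in RPF and 23 to 32 in total RNA for Nat1-/- against Nat1+/-, from 24 to 36 and 26 to 37 for Nat1-/- against WT, from 0 to 15 and 0 to 16 for Nat1+/- against WT, and from 0 to 0 for translational efficiency. A minimum mean of 50 left 19 calls in total RNA for Nat1-/- against Nat1+/- and 19 against WT, with fewer genes tested. For Nat1+/- against WT, total RNA calls were 6 without the variance trend and 16 in a fit of the 2 genotypes alone.

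Replicate numbers shared between genotypes were not taken as pairs, since the labels give them no common source and the deviations of same-numbered libraries correlated at -0.19 to -0.03 between Nat1-/- and Nat1+/- and -0.10 to -0.01 between Nat1+/- and WT. Between Nat1-/- and WT they correlated at 0.10 to 0.34, over 2 shared numbers. With that number as a replicate block, Nat1+/- against WT gave 3 calls in RPF and 5 in total RNA, and other counts within an assay stayed within 1.5 times. The culture block, which is a true pairing, gave 6 calls in translational efficiency for Nat1-/- against Nat1+/-. Depth limits the low members: 7 or fewer reads stood behind the Nat1-/- group for Col1a2, Col3a1, Col6a5 and Col8a1 in both assays, and a fold there rests on counts near 0.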
